A study of Mus musculus with 8 samples.

Results

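The markers of CA3 pyramidal cells described here are 5 genes, Bok, Spock1, Cpne4, St18 and Iyd, chosen by their gene symbol from the 54532 genes of the deposited expression table, and all 5 were found there. Transcripts were counted by RNA sequencing of whole hippocampus from adult mice. There are 4 libraries labelled Kat6a+/-, heterozygous for the histone acetyltransferase gene Kat6a, and 4 labelled WT, the wild type. All 8 libraries are untreated tissue as far as the labels state. The sources used here do not name the kind of Kat6a allele, the cells in which it acts, or the animals' exact age, sex and litter. Nor do they state that every library is a different animal, so p-values cover the spread between these libraries, which may be technical.

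CA3 is the hippocampal field that receives the mossy fibres of the dentate granule cells. Its pyramidal neurons excite one another through recurrent collaterals and send the Schaffer collaterals to CA1, and the field is known for its part in the storage and recall of associative memory. Genes transcribed more in these neurons than in CA1 or dentate neurons serve as markers of the field, and the study's title places the effect of KAT6A deficiency there. In whole tissue, fewer CA3 cells and less of a transcript per cell cannot be told apart. None of the 5 genes is found in CA3 cells alone: in human brain, for example, ST18 is also a known oligodendrocyte transcript.

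Reads assigned to genes ran from 16462428 to 27875310 per library. FPKM are reads scaled to gene length and by a constant for each library. Kat6a itself measured 6.06 to 7.64 FPKM in the Kat6a+/- libraries and 8.55 to 9.71 FPKM in the WT libraries. The libraries thus sort with their genotype labels. Of the 14159 genes that averaged 0.5 FPKM or more, 0 passed an adjusted p of 0.05 in limma on log2(FPKM + 0.5), which is 0% of those tested, and 624 genes, 4.41%, had an unadjusted p under 0.05. On the reads recovered from the FPKM values, edgeR and limma-voom also called 0 of these genes and DESeq2 called 5, none of them a CA3 marker.

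Each of the 5 CA3 markers had a higher mean in Kat6a+/- than in WT tissue, at 105% to 114% of the WT mean. In 0 of 5 did all Kat6a+/- values lie above all WT values, which 1.09% of the tested genes show, and in 0 of 5 below them, which 1.53% show. None passed the test. None is listed in the authors' deposited table for this comparison, whose 605 genes all have an unadjusted p of at most 0.05. The median log2 fold change of the 5 was 0.12, against 0.0010 over all tested genes. A positive log2 fold change was found for 5 of 5, where 50.6% of all tested genes have one. These members were listed with earlier results of these data known, so the count is a description.

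The promoters of Bok, Cpne4 and Iyd are shown because, among the members, these 3 genes kept the closest rank order of levels across the libraries, by Spearman's rho. Each is the RefSeq window of GRCm38.p6 from 250 bases before to 50 bases after the annotated start, written 5′ to 3′ along the gene, with CG dinucleotides and the motif TATAAA in capitals. The Bok window is chr1:93685325-93685624 on the plus strand, the Cpne4 window, 1 of 2 listed for that gene, chr9:104569405-104569704 on the plus strand, and the Iyd window chr10:3540024-3540323 on the plus strand.
Bok: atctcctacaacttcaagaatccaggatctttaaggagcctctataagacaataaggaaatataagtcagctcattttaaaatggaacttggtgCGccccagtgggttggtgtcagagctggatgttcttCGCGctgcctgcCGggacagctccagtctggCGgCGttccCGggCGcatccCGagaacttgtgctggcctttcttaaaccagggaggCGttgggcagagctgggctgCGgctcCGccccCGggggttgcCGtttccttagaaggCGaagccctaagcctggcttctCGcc
Cpne4: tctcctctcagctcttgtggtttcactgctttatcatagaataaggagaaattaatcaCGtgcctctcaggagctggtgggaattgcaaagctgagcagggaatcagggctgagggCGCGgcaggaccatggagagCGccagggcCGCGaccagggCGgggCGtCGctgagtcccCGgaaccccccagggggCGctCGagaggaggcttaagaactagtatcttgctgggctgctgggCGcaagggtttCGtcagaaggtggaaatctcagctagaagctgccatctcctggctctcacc
Iyd: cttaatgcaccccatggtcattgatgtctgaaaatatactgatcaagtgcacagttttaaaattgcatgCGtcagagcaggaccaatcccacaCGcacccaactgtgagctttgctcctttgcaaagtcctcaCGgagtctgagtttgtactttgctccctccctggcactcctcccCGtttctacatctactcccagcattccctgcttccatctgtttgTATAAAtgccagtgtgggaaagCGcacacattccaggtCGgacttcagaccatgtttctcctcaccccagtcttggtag

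The 3 windows differ in composition. The Bok window holds 16 CG dinucleotides and the Cpne4 window 14, both above the median of 7 over the 32851 RefSeq windows of this length, while the Iyd window holds 6. The second Cpne4 window, chr9:104587808-104588107 on the plus strand, holds 1 CG dinucleotide. The window of Spock1 on chromosome 13 is the richest of the members, with 29. TATAAA, searched on both strands, occurs in the Iyd window, 29 bases before the annotated start, and in no window of Bok, Cpne4 or Spock1; 13.6% of all windows contain it. The E-box letters CANNTG, which read alike on both strands, occur 3 times in the Iyd window, once in the Cpne4 window and not in the Bok window, and 72.3% of all windows contain them. The Bok, Iyd and Spock1 starts of RefSeq lie 85, 34 and 0 bases from the gene start of the deposited table, while the Cpne4 start lies 22369 bases inside that gene. RefSeq windows were matched for 4 of the 5 members.

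By level per kilobase, Bok was the most abundant of the 5 and Iyd the least. Over the 8 libraries Bok ran from 41.6 to 59.6 FPKM, Spock1 from 27.9 to 35.7 FPKM, Cpne4 from 20.2 to 28.1 FPKM, St18 from 4.54 to 7.06 FPKM and Iyd from 2.96 to 4.98 FPKM. The ranges of Spock1 and Cpne4 touch, and so do those of St18 and Iyd, but within each of the 8 libraries Bok stood above Spock1, Spock1 above Cpne4 and St18 above Iyd. Between 91 and 7046 reads per library lay behind these values, fewest for Iyd with 91 to 171 reads and most for Spock1 with 4030 to 7046 reads. No other gene with a read overlaps the span of any of the 5.

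**Figure D1:**
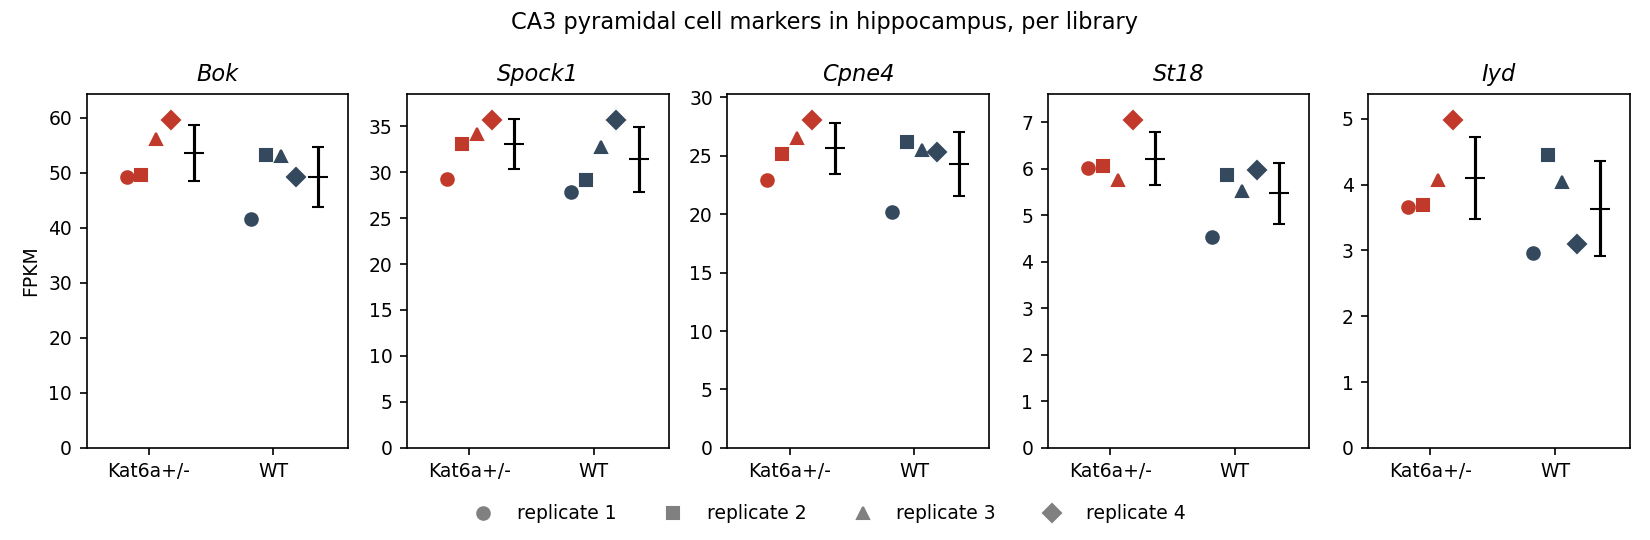
FPKM of each CA3 marker in the 4 Kat6a+/- libraries (red) and the 4 WT libraries (dark), with symbols for the replicate number and black bars for mean ± SD (n = 4 each); each vertical axis starts at 0. WT replicate 1 is the lowest of the 8 libraries in every panel, and Kat6a+/- replicate 4 is the highest in all but Spock1.

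Bok encodes a BCL2-family protein related to the apoptosis effectors BAX and BAK and found largely on endoplasmic reticulum membranes. The gene (ENSMUSG00000026278) spans bases 93685660 to 93695764 of chromosome 1 (GRCm38, plus strand). Its values were 49.3, 49.5, 56.1 and 59.6 FPKM in Kat6a+/- replicates 1 to 4, against 41.6, 53.2, 53.0 and 49.2 FPKM in WT replicates 1 to 4. A pair of Kat6a+/- libraries lay above all WT libraries and the other pair within the WT range. The means were 53.6 ± 5.09 FPKM in Kat6a+/- and 49.3 ± 5.41 FPKM in WT (SD, n = 4 each), a log2 fold change of 0.12 ± 0.09 (SE) with a 95% interval from -0.07 to 0.32. The difference was smaller than either SD, with an exact two-sided permutation p of 0.314 over all 70 assignments and a limma adjusted p of 0.9998.

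St18 encodes a zinc-finger transcription factor of the MYT family. The gene (ENSMUSG00000033740) spans bases 6487231 to 6860940 of chromosome 1 (GRCm38, plus strand). It measured 6.01, 6.06, 5.75 and 7.06 FPKM in the Kat6a+/- libraries, against 4.54, 5.88, 5.51 and 5.98 FPKM in the WT libraries. All Kat6a+/- values lay above the WT median, yet 5.75 FPKM in Kat6a+/- replicate 3 was below WT replicates 2 and 4. The means of 6.22 ± 0.573 FPKM in Kat6a+/- and 5.48 ± 0.657 FPKM in WT (SD, n = 4 each) gave the largest log2 fold change of the 5, 0.17 ± 0.09 (SE), with a 95% interval from -0.03 to 0.37. The exact permutation p was 0.143, the limma p 0.0843 unadjusted and 0.9998 adjusted. The count tests on recovered reads gave St18 unadjusted p-values of 0.0430 in edgeR, 0.0467 in DESeq2 and 0.0379 in limma-voom. Each had an adjusted p of 0.9997 to 0.9998. Of 14159 genes, 616 in edgeR, 467 in DESeq2 and 600 in limma-voom had an unadjusted p under 0.05.

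Iyd encodes iodotyrosine deiodinase, the enzyme known from the thyroid for recovering iodide from iodinated tyrosines. The gene (ENSMUSG00000019762) spans bases 3540240 to 3554877 of chromosome 10 (GRCm38, plus strand). The Kat6a+/- libraries held 3.66, 3.68, 4.07 and 4.98 FPKM, against 2.96, 4.44, 4.04 and 3.10 FPKM in the WT libraries. WT fell into a low pair, replicates 1 and 4, and a higher pair, replicates 2 and 3, and Iyd had the widest spread of the 5 in both genotypes, 15.1% of the mean in Kat6a+/- and 19.9% in WT. The means were 4.10 ± 0.619 FPKM in Kat6a+/- and 3.63 ± 0.723 FPKM in WT (SD, n = 4 each), with a log2 fold change of 0.16 ± 0.13 (SE), a 95% interval from -0.13 to 0.45 and an exact permutation p of 0.314.

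Cpne4 encodes copine IV, a cytosolic protein that binds membrane phospholipids when calcium rises. The gene (ENSMUSG00000032564) spans bases 104547286 to 105034544 of chromosome 9 (GRCm38, plus strand). Its values were 22.9, 25.1, 26.5 and 28.1 FPKM in the Kat6a+/- libraries, against 20.2, 26.1, 25.5 and 25.3 FPKM in the WT libraries. WT replicate 1 stood apart below 3 WT libraries that lay within 25.3 to 26.1 FPKM, inside the Kat6a+/- range. The means of 25.7 ± 2.19 FPKM in Kat6a+/- and 24.3 ± 2.74 FPKM in WT (SD, n = 4 each) gave a log2 fold change of 0.08 ± 0.09 (SE), a 95% interval from -0.12 to 0.28 and an exact permutation p of 0.543. Without WT replicate 1 the log2 fold change of Cpne4 was -0.0036.

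Spock1 encodes testican-1, a secreted proteoglycan of the extracellular matrix known as a protease inhibitor. The gene (ENSMUSG00000056222) spans bases 57421195 to 57908332 of chromosome 13 (GRCm38, minus strand). It measured 29.3, 33.0, 34.1 and 35.7 FPKM in the Kat6a+/- libraries, against 27.9, 29.2, 32.8 and 35.7 FPKM in the WT libraries, so the genotypes covered nearly the same range. The means were 33.0 ± 2.73 FPKM in Kat6a+/- and 31.4 ± 3.54 FPKM in WT (SD, n = 4 each), with a log2 fold change of 0.07 ± 0.08 (SE), a 95% interval from -0.11 to 0.26 and an exact permutation p of 0.400. Replicates 3 and 4 averaged 34.9 FPKM in Kat6a+/- and 34.2 FPKM in WT, and replicates 1 and 2 averaged 31.1 FPKM in Kat6a+/- and 28.5 FPKM in WT. The genotype difference in log2 was larger in replicates 1 and 2 for Spock1 and St18. For Bok, Iyd and Cpne4 it was larger in replicates 3 and 4. The labels do not say that a replicate number marks a shared batch.

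The low and high ends of the 5 markers fell in the same libraries. WT replicate 1 was the lowest of the 8 libraries in 5 of 5 members, where it is the lowest for 18.6% of all tested genes. Kat6a+/- replicate 4 was the highest in 4 of 5 members, against 13.8% of all tested genes; the exception, Spock1, was highest in WT replicate 4. The mean of the 5 centred log2 values, used as a score, was -0.06, 0.0034, 0.07 and 0.23 in Kat6a+/- replicates 1 to 4, against -0.29, 0.04, 0.02 and -0.02 in WT replicates 1 to 4. Leaving out WT replicate 1 brought the WT mean of St18 to 5.79 FPKM, of Bok to 51.8 FPKM, of Iyd to 3.86 FPKM, of Cpne4 to 25.7 FPKM and of Spock1 to 32.6 FPKM. The log2 fold changes were then 0.09 for St18, 0.05 for Bok, 0.08 for Iyd, -0.0036 for Cpne4 and 0.02 for Spock1, with a median of 0.05 and 4 of 5 above 0. Without Kat6a+/- replicate 4 the median was 0.07 and all 5 stayed above 0.

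**Figure D2:**
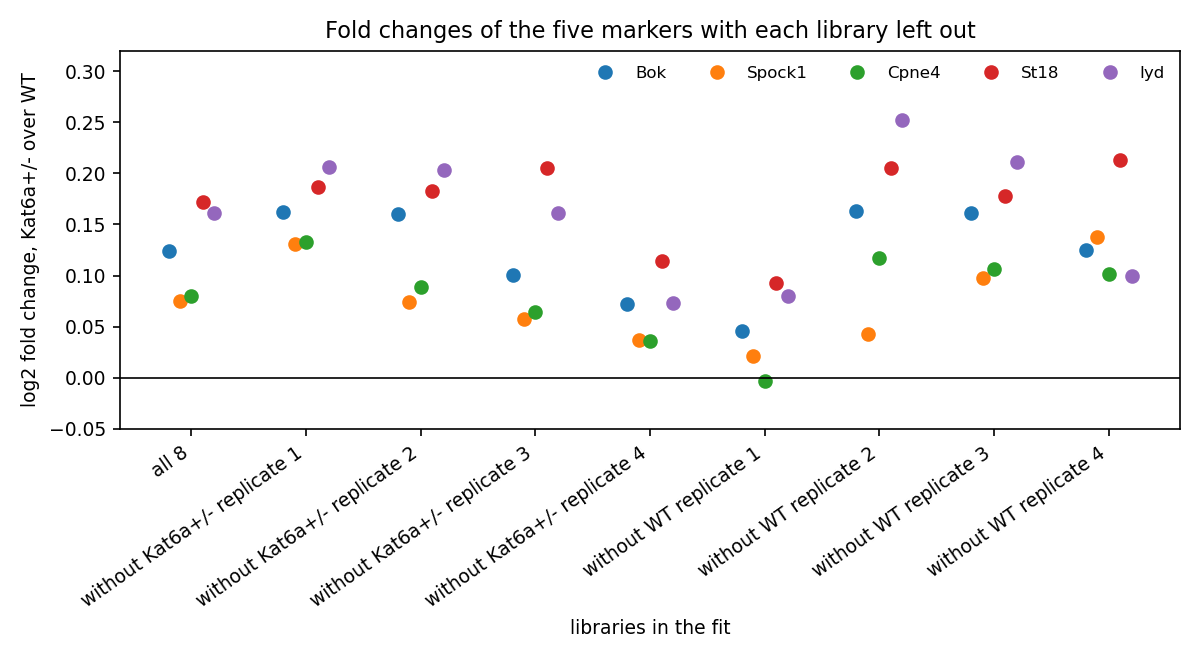
Log2 fold change of each CA3 marker (vertical axis, Kat6a+/- over WT on the log2(FPKM + 0.5) scale) with all 8 libraries and with each library left out in turn (horizontal axis). The values are lowest without WT replicate 1, where Cpne4 reaches -0.0036, apart from Iyd, which is lowest without Kat6a+/- replicate 4 at 0.07.

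By rank order, Bok, Cpne4 and Iyd followed each other most closely among the members. Their 3 pairs passed the adjusted threshold by both Pearson's r and Spearman's rho. The share of pairs over all tested genes that would pass was not computed. The passing pairs are therefore a description of the members, not a trait that sets them apart. Over the 8 libraries the log2 levels of Bok and Cpne4 had Pearson's r = 0.942 (exact permutation p = 1.488e-04, 0.00149 adjusted over the 10 pairs of members) and Spearman's rho = 0.929 (p = 0.00223, 0.0112 adjusted). Bok and Iyd had r = 0.898 (exact permutation p = 0.00196, 0.00980 adjusted) and rho = 0.976 (p = 3.968e-04, 0.00397 adjusted). Iyd and Cpne4 had r = 0.789 (exact permutation p = 0.0172, 0.0440 adjusted) and rho = 0.905 (p = 0.00456, 0.0152 adjusted). Without the 2 libraries farthest from the median of the gene named first, WT replicate 1 and Kat6a+/- replicate 4 in these 3 pairs, r was 0.713, 0.742 and 0.406 over 6 libraries.

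The other 7 pairs had a lower rho, of at most 0.524, although by Pearson's r St18 stood closer to Cpne4 and to Bok than Iyd did to Cpne4. Cpne4 and Spock1 passed the adjusted threshold by Pearson's r alone, at 0.753 (exact permutation p = 0.0176, 0.0440 adjusted; rho = 0.524, p = 0.197, 0.393 adjusted), and r was 0.242 without Kat6a+/- replicate 1 and WT replicate 1. St18 had r of 0.803 with Bok (exact permutation p = 0.0340, 0.0566 adjusted; rho = 0.333, p = 0.428, 0.535 adjusted) and 0.819 with Cpne4 (exact permutation p = 0.0255, 0.0509 adjusted; rho = 0.262, p = 0.536, 0.582 adjusted). Without WT replicate 1 and Kat6a+/- replicate 4 these became -0.689 and -0.444, so they rest on those libraries. Across the 10 pairs r ran from 0.302 (Iyd and Spock1) to 0.942 with all libraries, and from -0.689 to 0.742 without the farthest 2. Levels of all members in a library share its reads and scaling.

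The ratio of Bok to Cpne4 per kilobase, the pair with the highest Pearson's r, ran from 1.94 to 2.15. Ratios of genes outside the members were not taken for comparison. The Bok to Cpne4 ratio was 2.15, 1.97, 2.12 and 2.12 in the Kat6a+/- libraries and 2.06, 2.04, 2.08 and 1.94 in the WT libraries. Its means were 2.09 ± 0.0820 in Kat6a+/- and 2.03 ± 0.0592 in WT (SD, n = 4 each). The ratio of St18 to Iyd spread further, from 1.32 to 1.93, with 1.53 ± 0.132 in Kat6a+/- and 1.54 ± 0.278 in WT. That of Spock1 to Cpne4 was 1.29 ± 0.0189 in Kat6a+/- and 1.30 ± 0.132 in WT.

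Of 9 further CA3 markers, 6 had a higher mean in Kat6a+/- and 3 a lower one, with a median log2 fold change of 0.07, and 0 passed the adjusted threshold in limma, as for all tested genes (0%). Grik4, the kainate receptor subunit long used to mark CA3, measured 11.2 ± 0.789 FPKM in Kat6a+/- and 10.7 ± 1.39 FPKM in WT (SD, n = 4 each), a log2 fold change of 0.07 (exact permutation p = 0.514). Cdh24, a cadherin, had the smallest p of the list. Its values were 5.33, 4.03, 4.69 and 5.05 FPKM in Kat6a+/- and 3.53, 3.92, 4.08 and 3.45 FPKM in WT, where 4.03 FPKM in Kat6a+/- replicate 2 lay just under WT replicate 3 and 3 of the 4 Kat6a+/- libraries lay above all WT libraries. Its log2 fold change was 0.31 ± 0.09 (SE), with a limma p of 0.00505 unadjusted and 0.9998 adjusted and an exact permutation p of 0.0571; for Cdh24 the authors' deposited table has 0.35 as log2 fold change and 0.9998 as adjusted p.

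Prkcd, a protein kinase C isoform also abundant in thalamus, measured 5.26 ± 1.12 FPKM in Kat6a+/- and 4.30 ± 0.261 FPKM in WT (SD, n = 4 each; exact permutation p = 0.143). Kat6a+/- replicate 4 held its highest value, 6.77 FPKM. For Prkcd the authors' deposited table has 0.29 as log2 fold change and 0.9998 as adjusted p. Socs2, a suppressor of cytokine signalling, lay in the other direction, at 2.18 ± 0.145 FPKM in Kat6a+/- and 2.40 ± 0.196 FPKM in WT (exact permutation p = 0.114). WT replicate 1 was the lowest library in 4 of the 9. Without it, 3 of 9 had a log2 fold change above 0 and the median was -0.01; Cdh24 then stood at 0.28, Prkcd at 0.25 and Grik4 at -0.00053.

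**Figure D3:**
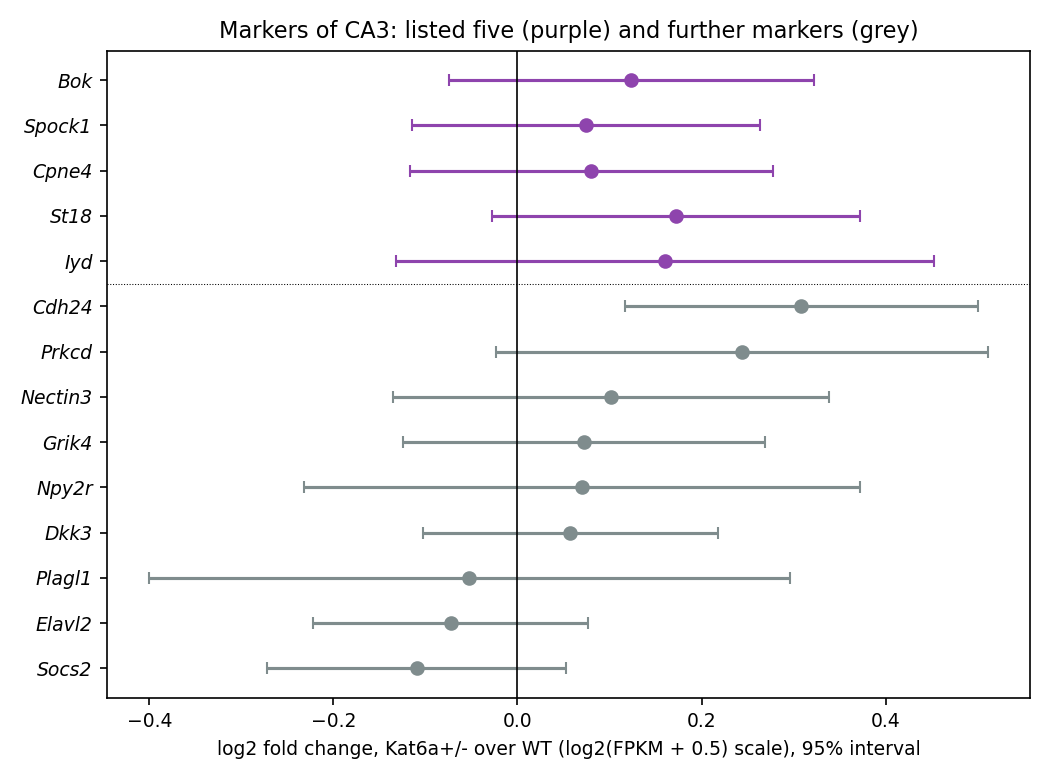
Log2 fold change, Kat6a+/- over WT, with its 95% interval from limma (horizontal axis) for the CA3 markers Bok, Spock1, Cpne4, St18 and Iyd (purple) and the 9 further CA3 markers (grey), 8 libraries. All intervals of the purple genes include 0, and of the grey genes Cdh24 alone has an interval clear of 0 before adjustment, from 0.12 to 0.50.

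Lists of other cell types show what else differed in the libraries at the ends of the CA3 range. WT replicate 1 also had the lowest score of the 8 libraries for CA2 markers, -0.29, for CA1 markers, -0.16, and for oligodendrocyte markers, -0.36. It had the highest score for astrocyte markers, 0.21, for thalamus and habenula markers, 0.30, and for striatum markers, 0.46. Its score for the 6 glutamatergic neuron markers was 0.02, an average over opposite values. Of these, 3 were lowest in WT replicate 1, whereas Tbr1, at 11.9 FPKM, and Satb1, at 7.04 FPKM, were highest there. Kat6a+/- replicate 4, highest for the CA3 markers, had 0.06 for CA2, -0.04 for CA1, 0.12 for dentate granule and 0.12 for oligodendrocyte markers. It scored lowest of the 8 libraries for mossy cell, -0.18, interneuron, -0.11, and thalamus and habenula markers, -0.13. It scored highest for the glutamatergic neuron markers, at 0.06. The part of these cell types in the CA3 values was not tested. The summed level of the 10 oligodendrocyte markers ran from 788 to 987 FPKM in Kat6a+/- and from 650 to 960 FPKM in WT, that of the 8 astrocyte markers from 676 to 759 FPKM in Kat6a+/- and from 724 to 838 FPKM in WT, and that of the 8 thalamus and habenula markers from 13.7 to 14.3 FPKM in Kat6a+/- and from 13.6 to 19.95 FPKM in WT; in these lists 0 markers were at 0 in all libraries.

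By genotype, the lists of other cell types gave medians of log2 fold change in both directions. CA2 markers were higher in 5 of 6 tested members with a median of 0.13, dentate granule markers in 11 of 12 with a median of 0.11, and CA1 markers in 5 of 10 with a median of -0.04. Mossy cell markers were higher in 1 of 7 with a median of -0.09. Oligodendrocyte markers were higher in 10 of 10 with a median of 0.14, astrocyte markers in 0 of 8 with a median of -0.09, interneuron markers in 0 of 9 with a median of -0.14, and thalamus and habenula markers in 1 of 6 with a median of -0.14. Striatum markers were higher in 3 of 5 (median 0.05) and choroid plexus markers in 3 of 3 tested (median 0.30). The glutamatergic neuron markers were higher in 4 of 6 (median 0.03). In each of these lists 0 members passed the adjusted threshold in limma. Without WT replicate 1 the median was 0.02 for CA2 and 0.03 for oligodendrocyte markers, beside 0.05 for the CA3 markers. It was then -0.09 for CA1 markers, with 2 of 10 higher, -0.18 for mossy cell, -0.07 for thalamus and habenula, -0.05 for astrocyte, 0.11 for dentate granule and -0.15 for interneuron markers. Over all libraries left out in turn, the median ranged from 0.02 to 0.19 for CA2, -0.09 to -0.01 for CA1, 0.07 to 0.16 for dentate granule, -0.18 to -0.05 for mossy cell, 0.03 to 0.21 for oligodendrocyte, -0.13 to -0.05 for astrocyte, -0.17 to -0.10 for interneuron, -0.24 to -0.07 for thalamus and habenula, -0.01 to 0.10 for striatum, 0.22 to 0.50 for choroid plexus and 0.0026 to 0.06 for glutamatergic markers. Kat6a+/- replicate 2 stood apart for choroid plexus, with a score of 1.28 against -0.51 to 0.33 in the other libraries and Ttr at 119 FPKM against 7.61 to 20.5 FPKM; without it the choroid plexus median was 0.27.

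**Figure D4:**
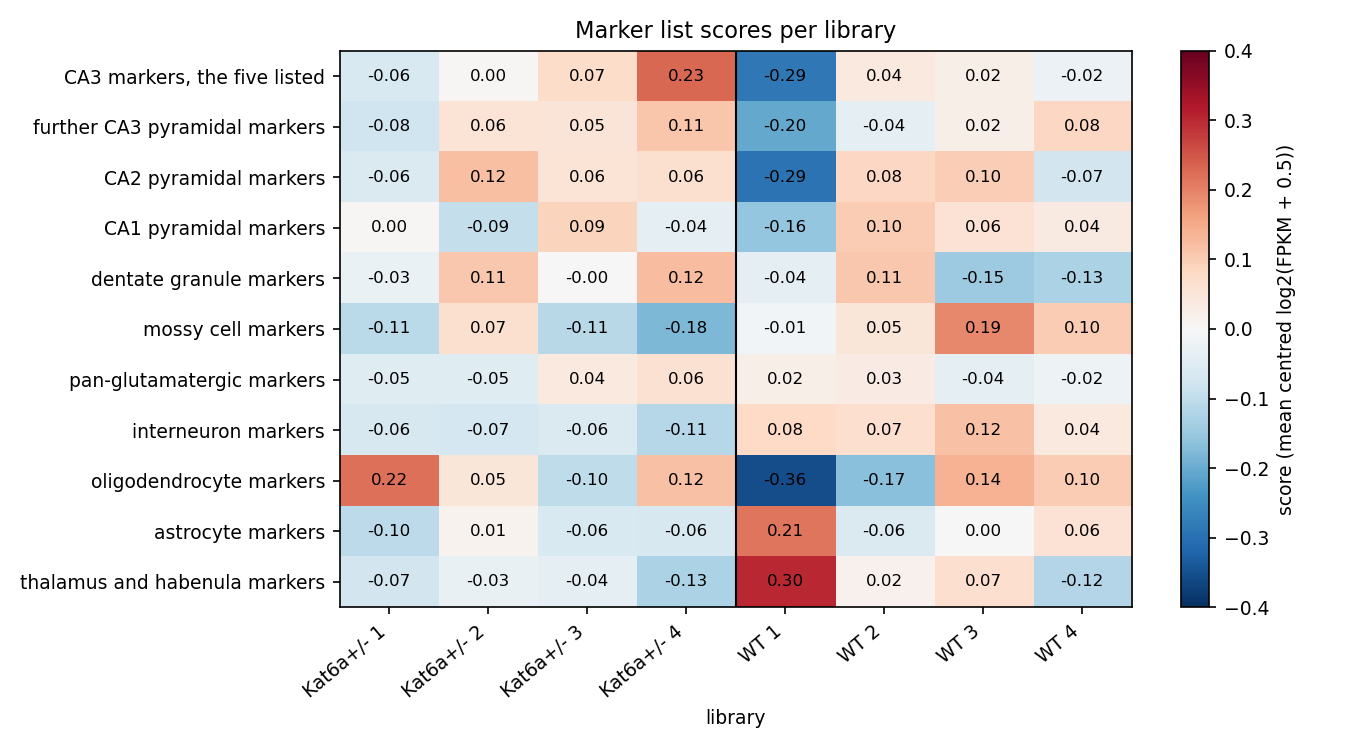
Score of marker lists (rows) in each library (columns, Kat6a+/- left of the line and WT right of it). The score is the average over a list's tested genes of log2(FPKM + 0.5), each gene centred on its own mean. The striatum and choroid plexus lists are not drawn. The CA3, further CA3, CA2, CA1 and oligodendrocyte rows have their lowest value in WT replicate 1, at -0.29, -0.20, -0.29, -0.16 and -0.36. The thalamus and habenula row has its highest there, 0.30.

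Nell2 and Scn3b had the profiles over the 8 libraries that lay closest to the mean profile of the CA3 markers. Likeness was the root mean square difference of centred log2 values, over 11337 protein-coding genes that averaged 1 FPKM or more, whose median difference was 0.156. The nearest were Nell2, a secreted protein of neurons, at 0.0266, Scn3b, a beta subunit of sodium channels, at 0.0311, Klf3, a Krüppel-like transcription factor, at 0.0331, Plcl1, a phospholipase C-like protein, at 0.0346, and Rasgrp1, a Ras activator, at 0.0355. Nell2 measured 212, 220, 233 and 251 FPKM in the Kat6a+/- libraries and 178, 227, 222 and 226 FPKM in the WT libraries. It was lowest in WT replicate 1 and highest in Kat6a+/- replicate 4, as were all members except Spock1, which was highest in WT replicate 4. Nell2 was picked for closeness to the members' mean profile, so these shared ends are no separate observation. Of the members themselves, Bok at 0.0322 and Cpne4 at 0.0347 were nearest to their mean profile. St18 at 0.0684, Spock1 at 0.1003 and Iyd at 0.113 were farther from it. Each member enters that mean and the other genes do not, so the member values are not comparable with those of the other genes.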

How the data were processed

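Per the labels' protocols, Trizol-extracted total RNA was cleared of DNA and went into NEBNext Ultra II libraries. The submitters' processing notes name STAR 2.5, HTSeq, DESeq2 and GRCm38 (mm10); the role of each, and whether strand was used, is not stated there. The authors deposited FPKM for every gene, with coordinates and length. Their second table gives read counts, FPKM, a normalised signal, log2 fold changes and p-values for 605 genes, per the file headers. FPKM times length, divided by 1 constant per library, gave whole reads for 100% of values within 0.01. The constant was taken from the deposited counts, which cover the 605 genes alone. That constant was not exactly inverse to the reads assigned to genes in the library.

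The test was limma 3.58.1 (R 4.3.3), with a mean trend, on log2(FPKM + 0.5), genotype as the single term, p-values adjusted by Benjamini-Hochberg over 14159 genes. Fold changes on this scale understate low genes. Alternatives used edgeR 4.0.16, DESeq2 1.42.0 and limma-voom on recovered reads, other pseudocounts, filters and scalings, a replicate block, and each library left out. All tools were tested on simulated reads with planted log2 changes of 0.5 or more. Those changes are larger than the members' own, so that test does not bear on calls of their size.

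Members and lists were chosen with earlier results of these data known. Named genes are the members, Kat6a, Grik4, Cdh24 and the 3 further CA3 markers with the smallest p. The 5 genes of nearest profile, Tbr1, Satb1 and genes with an outlying library are named too. Over all tested genes, deviations from the genotype means had r of 0.166, -0.0749, 0.0652 and 0.0051 between same-numbered libraries 1 to 4; as not every pair was above 0.1, the numbers were not taken as pairs. The replicate 1 libraries were each other's best match across genotypes, and replicates 3 matched replicates 4.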

Additional observations from a re-analysis of the deposited data

Results flagged for a closer look

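In 4 of 30 groups of 4 libraries examined (15 genes in each genotype), 1 library lay apart from the other 3 by Dixon's criterion at 95%; chance gives about 1 in 20. WT replicate 1 was the low library in 3 of them. Cpne4 stood at 20.2 FPKM there, against 25.3 to 26.1 FPKM in the other WT libraries. Npy2r, a neuropeptide Y receptor, stood at 13.3 FPKM, against 20.1 to 21.2 FPKM, and Dkk3, a secreted protein of the Dickkopf family, at 128 FPKM, against 152 to 153 FPKM. Plagl1, an imprinted zinc-finger gene, was high in Kat6a+/- replicate 2, at 2.73 FPKM, against 1.81 to 1.91 FPKM in the other Kat6a+/- libraries. These were not tested further.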

How the results depend on the processing

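Over 19 alternatives, 0 of the CA3 markers was called, at adjusted p-values from 0.883 to 0.9999. Without each replicate in turn, the log2 fold change ranged from 0.09 to 0.21 for St18, 0.05 to 0.16 for Bok, 0.07 to 0.25 for Iyd, -0.0036 to 0.13 for Cpne4 and 0.02 to 0.14 for Spock1. Their median ranged from 0.05 to 0.16 and the further CA3 markers above 0 from 3 to 7 of 9; Cpne4 below 0 and the count of 3 both came without WT replicate 1. Under the other 11 alternatives all 5 members stayed above 0. With the replicate block, St18 kept a log2 fold change of 0.17 with an unadjusted limma p of 0.0415 and an adjusted p of 0.883. In that fit 770 of 14159 genes had an unadjusted p under 0.05, and 0 genes were called. Over all genes, DESeq2 called 5 and leaving out a replicate gave 0 to 1, where limma with all libraries called 0; the cause was not tested. With 91 to 171 reads per library, Iyd is the member most limited by depth.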
